A study of Mus musculus with 6 samples.

Results

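Rod bipolar cells and ON cone bipolar cells of the retina answer to light through one signaling cascade. The 10 genes followed here were genes of this cascade together with Cabp5 and Pcp2, which label bipolar cells. Their levels were taken from the retinas of mice with oxygen-induced retinopathy (OIR) and of control mice. The 10 genes were found by their symbols among the 31053 genes of the deposited tables, and all 10 were present. They were Grm6, Trpm1, Nyx, Gpr179, Rgs11, Rgs7, Gnao1, Lrit3, Cabp5 and Pcp2.

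In the dark, photoreceptors release glutamate onto the dendrites of ON bipolar cells, where it binds the metabotropic receptor mGluR6, the product of Grm6. The receptor acts through the G protein subunit encoded by Gnao1 to keep the cation channel TRPM1 closed. When light lowers glutamate release, regulators of G protein signaling, RGS7 and RGS11, end the G protein signal, the channel opens and the cell depolarizes. Nyctalopin (Nyx) and LRIT3 (Lrit3) are leucine-rich repeat proteins needed to place TRPM1 at the synapse, and GPR179 (Gpr179) anchors the regulators there. Loss of several of these genes causes congenital stationary night blindness. Cabp5 encodes a calcium-binding protein and Pcp2 (also called L7) a modulator of Go-type G proteins, and both are widely used to label bipolar cells. OFF cone bipolar cells use ionotropic glutamate receptors in place of mGluR6.

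OIR mice breathed 75% oxygen between P7 and P12 and room air for the next 5 days, and their retinas were taken at P17. The controls (Ctrl) were mice of the same age kept in room air. Each group had 3 samples, and each sample pooled the retinas of 2 mice, so that no value belongs to a single animal. The labels name the source as retinal endothelial cells, while most cells carried markers of rods and other retinal neurons or glia, and the study's methods describe whole dissociated retinas. The study calls the 3 samples of a group biological replicates, and the p-values below measure the spread between these pools. All 3 OIR samples and Ctrl replicate 1 expressed Y-linked genes and not Xist, whereas Ctrl replicates 2 and 3 expressed Xist, so that sex was not balanced between the groups.

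Counts of unique molecular identifiers (UMIs, each standing for 1 captured RNA molecule) ranged from 15788524 to 42606878 per sample, and 38569 of 47631 barcodes passed the filters. Clusters were named from marker genes. None of the 10 genes or their close partners took part in the clustering, and none of the 10 in the naming. Of the close partners, Prkca was used to name the rod bipolar class. This gave 1998 rod bipolar-like, 2209 ON cone bipolar-like and 918 OFF cone bipolar-like cells. Bipolar-like cells made up 23.8%, 6.62% and 4.98% of the cells of OIR replicates 1 to 3 and 32.4%, 5.88% and 4.48% of those of Ctrl replicates 1 to 3. Replicate 1 of each group thus stood apart from the other two, with 557 rod bipolar-like cells against 173 and 153 in OIR and 802 against 160 and 153 in Ctrl. Prkca, which marks rod bipolar cells, reached 2321 counts per 1000000 UMIs (CPM) in the rod bipolar-like sums against 68.2 and 26.7 CPM in the ON and OFF cone bipolar-like sums. Isl1, a factor of ON bipolar cells, had 2293, 1031 and 23.1 CPM in these classes, and the kainate receptor gene Grik1, a marker of OFF cone bipolar cells, had 33.0, 26.4 and 959.7 CPM. Prkca, Isl1 and Grik1 were the genes that set the class names, so these levels describe the naming and do not test it.

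The genes lie on 6 autosomes and the X chromosome of GRCm38 (mm10), in the GENCODE M21 annotation. Grm6 is at chr11:50850685-50866208 (plus strand), Trpm1 at chr7:64153835-64269775 (plus), Nyx at chrX:13466110-13489313 (plus) and Lrit3 at chr3:129787881-129804030 (minus). Gpr179 is at chr11:97332109-97352077 (minus), Rgs11 at chr17:26202951-26211324 (plus), Rgs7 at chr1:175059087-175492500 (minus) and Gnao1 at chr8:93809966-93969388 (plus). Cabp5 is at chr7:13398132-13408887 (plus) and Pcp2 at chr8:3623371-3625545 (minus). Trpm1 shares its strand with Mir211 and Gm44719, and Rgs7 with 5730408A14Rik, so that reads in the shared stretches could have been counted for either gene or dropped.

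The promoter windows of RefSeq (GRCm38.p6), from 250 bases before to 50 bases after each annotated start, held 13 windows for 9 of the 10 genes, all but Rgs11. These were searched on both strands for TAATCC, the letters bound by the homeodomain factors CRX and OTX2 of photoreceptors and bipolar cells. Of the 9 genes, 2 had a match, Trpm1 and Cabp5. Counted by window, 2 of the 13 held the motif, against 7.06% of all 32851 windows in the table. The first base of the match lay 34 bases before the start of Trpm1, and the 2 matches of Cabp5 began 160 and 41 bases before its start. Both windows are shown with the matches in capitals (GGATTA in Trpm1 is the motif on the other strand), beside the Grm6 window, which held no match, at chr7:64153585-64153884, chr7:13397905-13398204 and chr11:50850435-50850734, all on the plus strand.
Trpm1: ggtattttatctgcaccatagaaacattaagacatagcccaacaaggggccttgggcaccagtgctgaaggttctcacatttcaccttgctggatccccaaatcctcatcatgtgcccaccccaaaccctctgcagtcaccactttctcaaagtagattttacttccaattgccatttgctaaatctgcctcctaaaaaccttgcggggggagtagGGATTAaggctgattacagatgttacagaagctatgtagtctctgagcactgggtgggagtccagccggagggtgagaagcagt
Cabp5: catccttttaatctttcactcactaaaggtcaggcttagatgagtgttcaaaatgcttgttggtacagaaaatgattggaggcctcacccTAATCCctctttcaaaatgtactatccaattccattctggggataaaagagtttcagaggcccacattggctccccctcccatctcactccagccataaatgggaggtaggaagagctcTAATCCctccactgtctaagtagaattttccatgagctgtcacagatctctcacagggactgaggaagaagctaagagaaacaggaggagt
Grm6: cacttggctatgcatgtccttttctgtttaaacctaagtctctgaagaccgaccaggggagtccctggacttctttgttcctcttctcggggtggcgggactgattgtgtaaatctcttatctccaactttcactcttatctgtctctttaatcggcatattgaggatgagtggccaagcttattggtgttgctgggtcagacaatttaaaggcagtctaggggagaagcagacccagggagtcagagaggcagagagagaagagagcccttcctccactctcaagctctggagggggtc
A match of 6 letters is a description of the window and not evidence of a bound factor.

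Of the 10 genes, 8 had their highest mean in an ON bipolar class, and Lrit3 and Cabp5 did not. Raw UMIs were summed per sample and cell type and scaled to CPM, so that each level below is the share of a cell type's UMIs taken by the gene. Levels are given as the mean ± SD over all 6 samples and compared between cell types for 1 gene at a time, since the types came from clustering the same cells and such levels carry no test.

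Grm6, the receptor, had 1053 ± 192 CPM in rod bipolar-like and 841 ± 65.2 CPM in ON cone bipolar-like sums, and 27.0 ± 13.0 CPM in OFF cone bipolar-like sums. Among the other types with 10 or more cells per sample, its mean was highest in the retinal pigment epithelium-like (RPE-like) sums at 18.4 CPM. Trpm1, the channel, was concentrated in rod bipolar-like sums at 4305 ± 674 CPM, against 683 ± 135 CPM in ON cone and 96.7 ± 47.0 CPM in OFF cone bipolar-like sums. Its RPE-like level of 137 to 677 CPM over the samples overlapped the range of the ON cone class, and Trpm1 is also known from pigment cells. The RPE-like sums rested on 15 to 73 cells per sample, and the part of bipolar RNA in them was not tested.

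The scaffolding genes did not share one order. Nyx was higher in ON cone bipolar-like (67.9 ± 20.3 CPM) than in rod bipolar-like sums (29.8 ± 9.80 CPM), and 45 Nyx UMIs in all were found in OFF cone bipolar-like cells. Gpr179 had 755 ± 77.3 CPM in rod bipolar-like, 323 ± 47.9 CPM in ON cone and 37.4 ± 14.6 CPM in OFF cone bipolar-like sums, next to 27.6 CPM in Mueller-like sums. Lrit3 stood apart. Only 8, 10 and 3 Lrit3 UMIs were counted in the 1998 rod bipolar-like, 2209 ON cone and 918 OFF cone bipolar-like cells, whereas the cone-like sums held 47.0 to 67.2 CPM and the rod-like sums 10.1 to 15.0 CPM of Lrit3. Lrit3 was therefore seen in photoreceptors and hardly at all in the bipolar cells at this depth.

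The G protein and its regulators reached beyond the ON classes. Gnao1 had 1379 ± 182 CPM in rod bipolar-like and 598 ± 58.6 CPM in ON cone bipolar-like sums. It was next highest in RPE-like (233 CPM), amacrine-like (231 CPM) and OFF cone bipolar-like sums (190 ± 27.6 CPM), neighbors that did not differ beyond their spread over samples. Rgs7 had 210 ± 19.8 CPM in rod bipolar-like sums, and its levels in amacrine-like (49.3 to 83.6 CPM), ON cone bipolar-like (49.0 to 83.4 CPM) and cone-like sums (32.0 to 58.4 CPM) overlapped. Rgs11 was closer to the ON pattern, with 231 ± 50.4 CPM in rod bipolar-like, 177 ± 21.6 CPM in ON cone and 69.3 ± 39.4 CPM in OFF cone bipolar-like sums, and 13.6 CPM in amacrine-like sums.

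The remaining members, Cabp5 and Pcp2, crossed the ON and OFF division. Cabp5 was highest in OFF cone bipolar-like sums at 1089 ± 267 CPM, next to 885 ± 175 CPM in rod bipolar-like and 716 ± 114 CPM in ON cone bipolar-like sums, and neighboring classes overlapped. Pcp2 took 11689 ± 1543 CPM of the rod bipolar-like UMIs, against 1809 ± 252 CPM in ON cone and 645 ± 351 CPM in OFF cone bipolar-like sums. Pcp2 UMIs were also found outside the bipolar classes. Rod-like sums held 123 CPM of Pcp2 in Ctrl replicate 1 and 75.9 CPM in OIR replicate 1 against 15.1 to 31.0 CPM in the other 4 samples. Replicate 1 of each group also had the largest bipolar share, and the source of Pcp2 in rod-like sums was not tested.

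**Figure D1:**
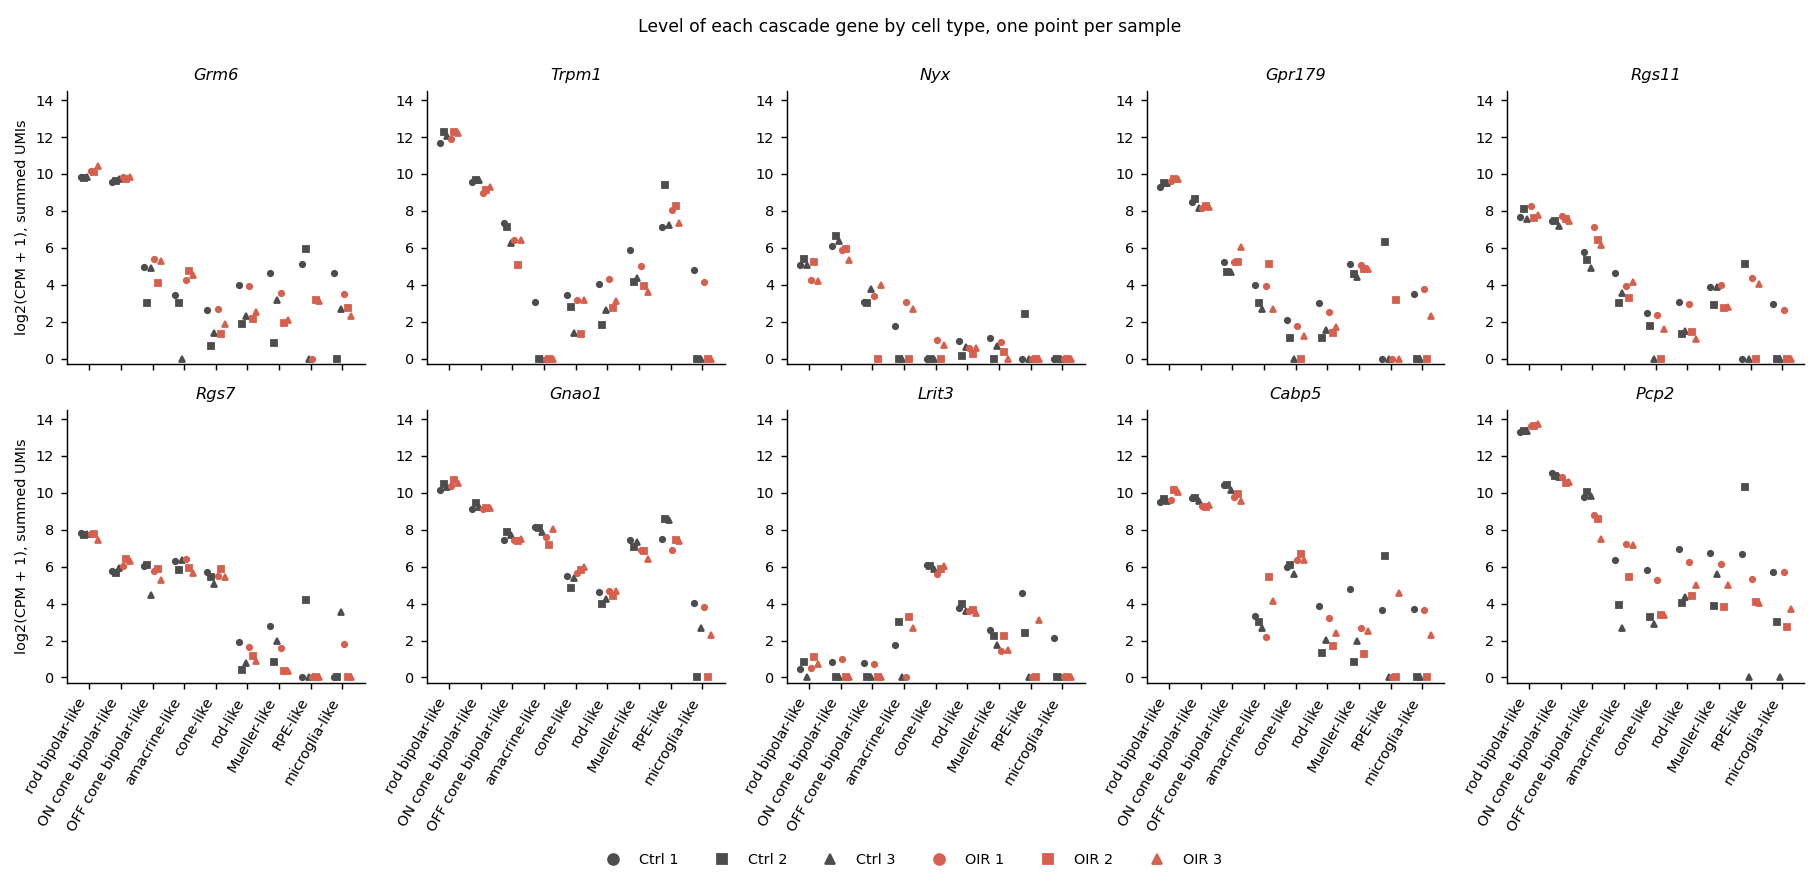
Level of each of the 10 genes, as log2(CPM + 1) on the vertical axis, in the 9 tested cell types, with 1 point per sample (color for OIR or Ctrl, shape for the replicate). Trpm1 and Pcp2 peak in the rod bipolar-like sums (means of 4305 and 11689 CPM), whereas Lrit3 is highest in the cone-like sums (47.0 to 67.2 CPM).

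ON and OFF cone bipolar cells fall into several anatomical types, and the genes differed between the subgroups of a class. Subgroups are named by a leading marker, their levels are means over samples, and they carry no test since they too came from the clustering. In the Cck-led ON subgroup Grm6 had 1341 CPM and Trpm1 1680 CPM with 89.9 CPM of Cabp5. The Sox6-led ON subgroup combined 1215 CPM of Grm6 and 879 CPM of Trpm1 with 1071 CPM of Cabp5 and the highest Nyx of the ON subgroups, 135 CPM. In the Slitrk5-led ON subgroup Grm6 had 662 CPM but Trpm1 177 CPM, and Pcp2 reached 5107 CPM. The ON subgroup led by Rbp4 and Chrm2, which no listed subgroup marker named, had still less Grm6 (481 CPM) and Trpm1 (16.7 CPM). Its Pcp2 level was 3395 CPM. The level of the channel thus ranged more widely over these 4 subgroups than that of the receptor.

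The Lrrtm1-led ON subgroup had the least Grm6 of the ON subgroups, 112 CPM, together with 268 CPM of Trpm1 and 1351 CPM of Cabp5. Among OFF subgroups, Pcp2 was found mainly in the Erbb4-led one, at 1618 CPM against 108 CPM in the Grik1-led and 47.7 CPM in the Neto1-led one. The Neto1-led OFF subgroup had more Rgs11 (213 CPM) and Trpm1 (384 CPM) than the Erbb4-led one, where Rgs11 had 9.40 CPM and Trpm1 62.5 CPM. The Neto1-led means weigh all samples alike, although OIR replicate 2 and Ctrl replicates 2 and 3 held only 2 such cells each.

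**Figure D2:**
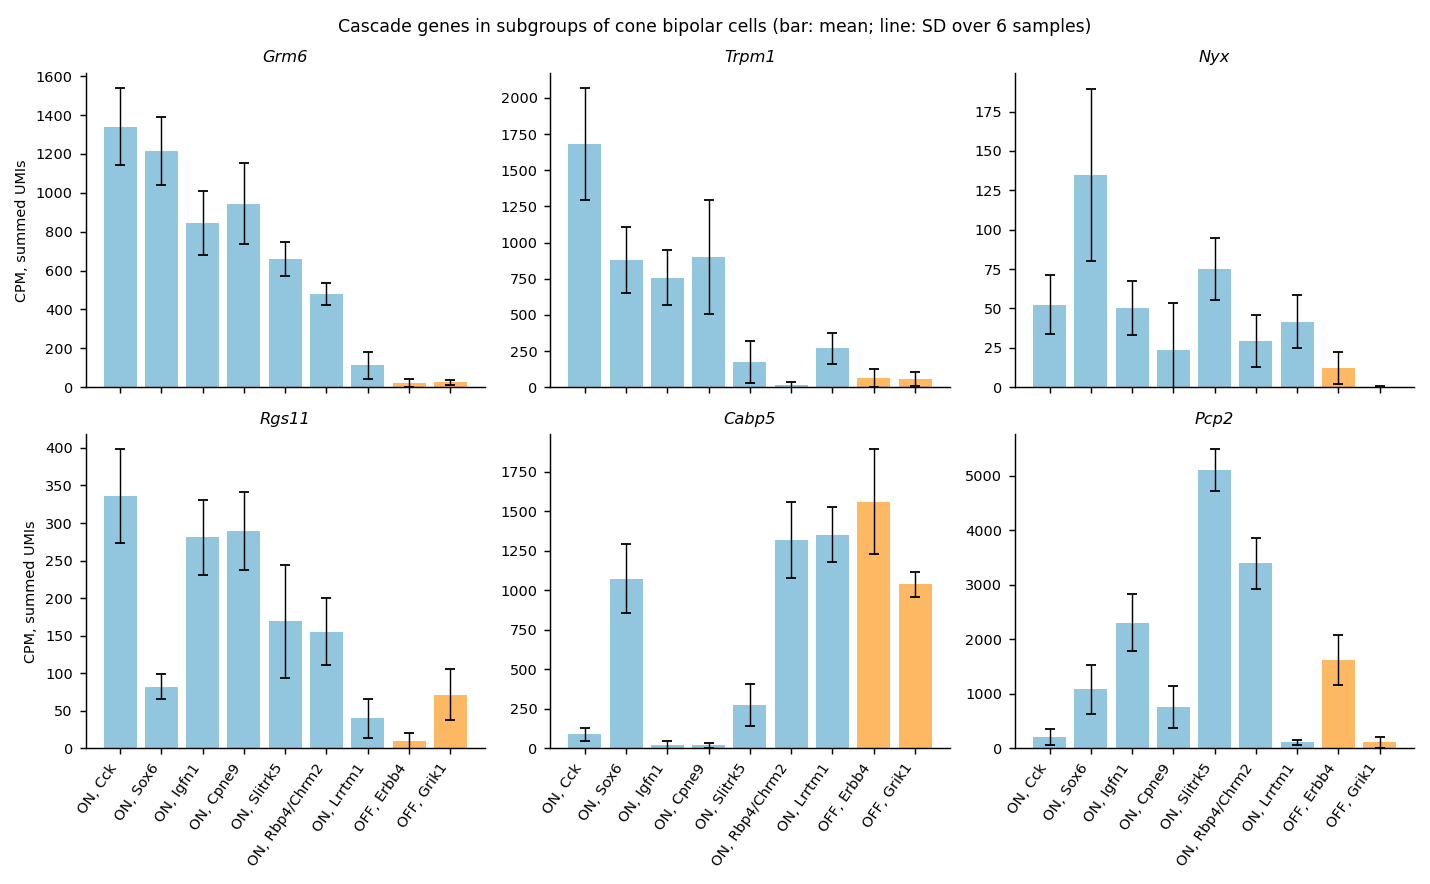
Level (CPM) of 6 of the genes in the 7 ON subgroups (blue) and the 2 larger OFF subgroups (orange) of cone bipolar-like cells, with bars for the mean and lines for the SD over 6 samples. Trpm1 ranges from 16.7 CPM in the Rbp4-led to 1680 CPM in the Cck-led ON subgroup, and Pcp2 has 1618 CPM in the Erbb4-led against 108 CPM in the Grik1-led OFF subgroup.

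Genes whose level moved most like each member were sought over 54 sums (9 types in 6 samples) and 12656 genes, by the Pearson correlation of log2 CPM. The nearest to Grm6 were Gng13, which encodes a G protein gamma subunit (r = 0.91), and Isl1 (r = 0.91), and Gng13 also led for Trpm1 (r = 0.86) and Pcp2 (r = 0.94). Lrit3 was most like Fabp12 (r = 0.87), and its correlation with Grm6 was -0.38. The points share libraries and cell types, so these values describe the pattern of levels over types.

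OIR was compared with Ctrl within each bipolar class, which asks whether the cascade genes of bipolar cells were at other levels after the hyperoxic and hypoxic phases. Sums of 3 OIR and 3 Ctrl samples were tested with edgeR's quasi-likelihood test across all genes with Benjamini-Hochberg adjustment. Calls needed an adjusted p below 0.05 together with an absolute log2 fold change of 0.25 or more. All log2 fold changes below are OIR over Ctrl.

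In rod bipolar-like cells 0 of the 10 genes was called at these settings, where 2.41% of all 9288 genes tested were called. Of the 10, 9 passed the filter on low counts, and DESeq2 called 0 as well. By edgeR 3 of the 10 had an unadjusted p under 0.05, against 1361 of all 9288 genes. Samples of the 2 groups did not overlap in CPM for 3 of the 10 (Grm6, Gpr179 and Pcp2, higher in OIR), against 19.2% of all genes.

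Grm6 had 1149, 1091 and 1375 CPM in OIR replicates 1 to 3 and 905, 886 and 912 CPM in Ctrl replicates 1 to 3. Every OIR sample was above every Ctrl sample, and the log2 fold change was 0.38 ± 0.15 (SE, n = 3 per group, adjusted p = 0.240 in the edgeR test). With the replicate number as a block, Grm6 was called higher in OIR (log2 fold change 0.37, adjusted p = 0.0361). Nyx had 18.3, 36.1 and 17.2 CPM in OIR and 33.1, 41.2 and 32.9 CPM in Ctrl. OIR replicate 2 lay inside the Ctrl range, and the log2 fold change of Nyx was -0.65 ± 0.25 (adjusted p = 0.231), while the block called it lower (log2 fold change -0.69, adjusted p = 0.0332).

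Trpm1 had 3869, 4907 and 4728 CPM in OIR and 3218, 4894 and 4211 CPM in Ctrl, with overlapping groups and a log2 fold change of 0.09 ± 0.19. Pcp2 had 12742, 12465 and 13842 CPM in OIR against 9938, 10540 and 10606 CPM in Ctrl (log2 fold change 0.29 ± 0.19, adjusted p = 0.532 by edgeR). Gpr179, the anchor of the regulators, had 774, 836 and 837 CPM in OIR against 635, 726 and 724 CPM in Ctrl (log2 fold change 0.19 ± 0.13). The groups were separate in Pcp2 and Gpr179, but neither difference passed the test. Cabp5 had 792, 1139 and 1072 CPM in OIR against 722, 821 and 764 CPM in Ctrl, with 1 OIR sample inside the Ctrl range (log2 fold change 0.34 ± 0.15, adjusted p = 0.306 by edgeR).

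The G protein and its regulators overlapped between groups in rod bipolar-like cells. Gnao1 had 1311, 1665 and 1467 CPM in OIR and 1139, 1422 and 1269 CPM in Ctrl, Rgs7 had 216, 219 and 172 CPM in OIR and 229, 209 and 218 CPM in Ctrl, and Rgs11 had 311, 195 and 215 CPM in OIR and 203, 275 and 186 CPM in Ctrl. The direction of Rgs11 rested on OIR replicate 1, without which its log2 fold change was -0.19 in place of 0.11. That of Trpm1 rested on Ctrl replicate 1, without which it was -0.04. Lrit3 counted 2, 2 and 1 UMIs in OIR and 2, 1 and 0 in Ctrl, too few to compare.

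In ON cone bipolar-like cells 0 of the 10 genes was called by edgeR, where 0.968% of all 9505 genes were. Of the 10, 9 passed the filter and 4 had an unadjusted p under 0.05 by edgeR, against 1112 of all 9505 genes. Groups did not overlap for 5 of the 10 (Trpm1, Nyx, Cabp5 and Pcp2 lower and Rgs7 higher in OIR), against 17.2% of all genes.

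Trpm1 had 507, 559 and 637 CPM in OIR replicates 1 to 3 and 760, 815 and 820 CPM in Ctrl replicates 1 to 3. All 3 OIR samples were below all 3 Ctrl samples, with a log2 fold change of -0.54 ± 0.14 (SE, n = 3 per group, adjusted p = 0.112 in the edgeR test). DESeq2 called it lower (log2 fold change -0.54, adjusted p = 0.0316), and so did edgeR with the replicate block (log2 fold change -0.54, adjusted p = 0.0136). The subgroups gave Trpm1 a lower mean in OIR than in Ctrl in 6 of 7 cases, for example 674 against 1083 CPM in the Sox6-led and 63.0 against 291 CPM in the Slitrk5-led one. The exception was the Rbp4-led subgroup, where Trpm1 had 17.9 CPM in OIR and 15.4 CPM in Ctrl. With 6 of the 7 subgroups weighted alike (all but the Cpne9-led one, which had under 5 cells in Ctrl replicates 2 and 3), an alternative chosen after seeing the data, the log2 fold change of Trpm1 was -0.58 (adjusted p = 0.0713).

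Grm6 had 914, 842 and 907 CPM in OIR and 749, 786 and 850 CPM in Ctrl of ON cone bipolar-like cells, and the groups overlapped (log2 fold change 0.12 ± 0.15). Nyx had 59.0, 60.2 and 39.5 CPM in OIR against 68.0, 98.0 and 82.6 CPM in Ctrl, with each OIR sample below each Ctrl sample (log2 fold change -0.62 ± 0.20, adjusted p = 0.211 by edgeR). Nyx was called lower without the count filter (adjusted p = 0.0429) and in replicates 2 and 3 alone (log2 fold change -0.95, adjusted p = 0.0193). In replicates 2 and 3 both OIR samples expressed Y-linked genes and both Ctrl samples Xist, and Nyx is X-linked. OIR and sex therefore cannot be told apart in that fit. Gpr179 had 290, 311 and 296 CPM in OIR and 356, 406 and 283 CPM in Ctrl, and Ctrl replicate 3 lay below every OIR sample.

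Cabp5 had 615, 601 and 640 CPM in OIR against 839, 856 and 742 CPM in Ctrl (log2 fold change -0.44 ± 0.14, adjusted p = 0.236 by edgeR). Pcp2 had 1846, 1497 and 1544 CPM in OIR against 2173, 1924 and 1870 CPM in Ctrl (log2 fold change -0.33 ± 0.17). Each OIR sample was below each Ctrl sample for both genes, whereas both had fold changes above 0 in rod bipolar-like cells. Rgs7, in turn, had 65.4, 83.4 and 78.3 CPM in OIR against 53.6, 49.0 and 61.2 CPM in Ctrl (log2 fold change 0.41 ± 0.16, adjusted p = 0.332 by edgeR). Rgs11 (209, 190 and 172 CPM in OIR, 175, 174 and 144 CPM in Ctrl) and Gnao1 (554, 583 and 569 CPM in OIR, 558, 709 and 613 CPM in Ctrl) overlapped between the groups. Lrit3 had 5 UMIs in replicate 1 of each group and 0 in the other 4 samples.

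**Figure D3:**
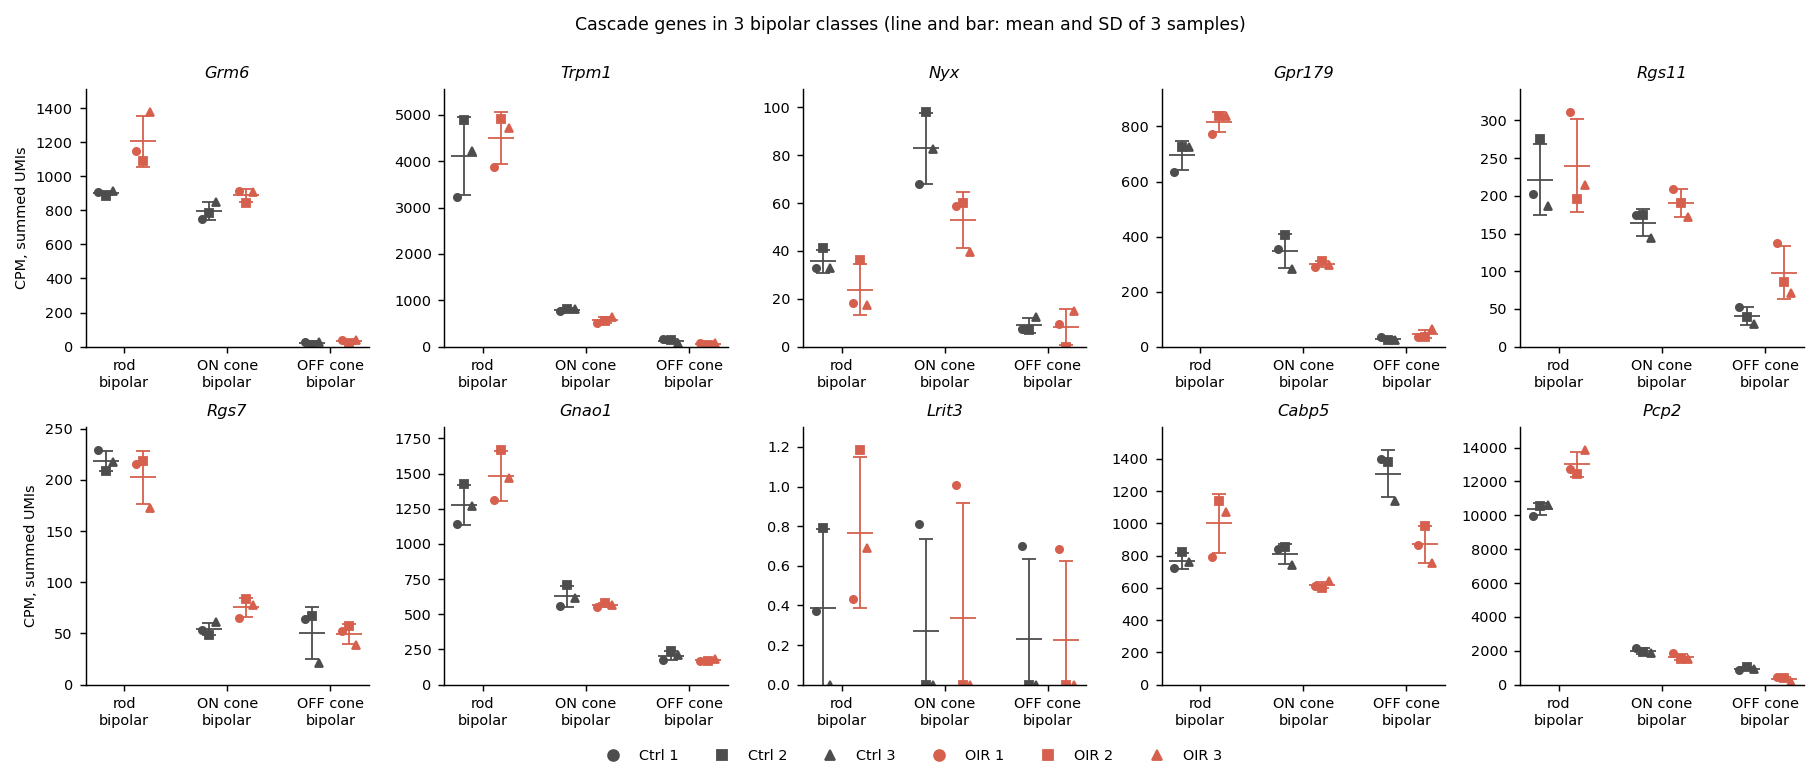
Level (CPM) of each gene in every OIR and Ctrl sample of the rod, ON cone and OFF cone bipolar-like classes, with group means and SD (n = 3). Grm6 in rod bipolar-like cells (1091 to 1375 against 886 to 912 CPM), Trpm1 in ON cone (507 to 637 against 760 to 820 CPM) and Pcp2 in OFF cone bipolar-like cells (180 to 449 against 884 to 1048 CPM) show separate groups.

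OFF cone bipolar-like cells held the 1 member called in any bipolar class in the main edgeR fit, Pcp2, which fell in OIR. The class was the smallest, with 40 to 52 cells in replicates 2 and 3, and 0.754% of its 5441 genes were called. Of the 10 genes, 7 passed the filter (all but Grm6, Nyx and Lrit3). By edgeR 4 of the 10 had an unadjusted p under 0.05, against 514 of all 5441 genes. The groups did not overlap for 4 (Pcp2 and Cabp5 lower, Rgs11 and Gpr179 higher in OIR), against 14.8% of all genes.

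Pcp2 had 449, 389 and 180 CPM in OIR replicates 1 to 3 and 884, 1048 and 921 CPM in Ctrl replicates 1 to 3. The log2 fold change was -1.46 ± 0.24 (SE, n = 3 per group, adjusted p = 0.0032 in the edgeR test), and Pcp2 was called lower by DESeq2 and without any 1 of the 6 samples (log2 fold changes from -1.83 to -1.17). The Erbb4-led subgroup, which held most of the Pcp2, made up 23.0%, 39.0% and 9.62% of the OFF cells in OIR and 30.1%, 45.0% and 34.1% in Ctrl. Inside this subgroup Pcp2 had 1219 ± 78.8 CPM in OIR and 2017 ± 205 CPM in Ctrl (n = 3 each), where replicates 2 and 3 of the groups rested on 5 to 18 cells. The Neto1-led and Pcdh17-led subgroups, which had little Pcp2, took larger shares in some or all OIR samples. The Pcdh17-led one made up 10.0%, 9.76% and 15.4% of the OFF cells in OIR replicates 1 to 3 and 0.783% and 2.5% in Ctrl replicates 1 and 2, with no cell in Ctrl replicate 3. With the Erbb4-led and Grik1-led subgroups weighted alike and the other 2 left out, since they had under 5 cells in some samples, the log2 fold change of Pcp2 was -0.65 and was no longer called (limma, adjusted p = 0.308).

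Rgs11 had 138, 85.9 and 70.7 CPM in OIR against 53.0, 38.8 and 29.4 CPM in Ctrl of OFF cone bipolar-like cells. Each OIR sample was above each Ctrl sample, and the log2 fold change of 1.19 ± 0.28 did not pass the test (adjusted p = 0.0537 by edgeR). With the replicate number as a block Rgs11 was called higher (log2 fold change 1.32, adjusted p = 0.00026), although same-numbered samples correlated below 0.1 in 2 of 3 pairs in this class. Without the block it was called higher without Ctrl replicate 1 (log2 fold change 1.66, adjusted p = 0.0080) and without OIR replicate 3 (1.38, adjusted p = 0.0220). Without Ctrl replicate 1 all remaining Ctrl samples expressed Xist, so that OIR and sex cannot be told apart in that fit. The Neto1-led subgroup, where Rgs11 was high, took 13.0%, 4.88% and 23.1% of the OFF cells in OIR and 4.31%, 5.00% and 4.55% in Ctrl, and the part of this in the Rgs11 values was not tested. With the Erbb4-led and Grik1-led subgroups alone, weighted alike, Rgs11 had 71.6, 63.2 and 20.02 CPM in OIR and 34.8, 31.0 and 22.6 CPM in Ctrl, so that the groups overlapped (log2 fold change 0.62, adjusted p = 0.751 by limma).

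Cabp5 had 869, 986 and 757 CPM in OIR and 1400, 1383 and 1139 CPM in Ctrl of OFF cone bipolar-like cells, without overlap (log2 fold change -0.61 ± 0.18, adjusted p = 0.182 by edgeR). The block called it lower (log2 fold change -0.61, adjusted p = 0.0091). Trpm1 had 84.6, 32.7 and 85.4 CPM in OIR and 164, 138 and 75.7 CPM in Ctrl, with Ctrl replicate 3 inside the OIR range (log2 fold change -0.89 ± 0.28, adjusted p = 0.207 by edgeR). The block called Trpm1 lower as well (log2 fold change -0.90, adjusted p = 0.0227), and in the Erbb4-led and Grik1-led subgroups alone, weighted alike, its log2 fold change was -2.53 (adjusted p = 0.131 by limma). Gpr179 had 36.9, 36.8 and 64.8 CPM in OIR against 36.3, 24.7 and 25.2 CPM in Ctrl. The groups of Gpr179 were separated by less than 1 CPM between their nearest samples, and its log2 fold change of 0.41 ± 0.31 was small against its error.

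Gnao1 (171, 168 and 180 CPM in OIR, 172, 236 and 210 CPM in Ctrl) and Rgs7 (52.6, 57.3 and 38.3 CPM in OIR, 63.8, 67.0 and 21.0 CPM in Ctrl) overlapped between the groups in OFF cone bipolar-like cells. The sign of Rgs7 rested on Ctrl replicate 1, without which its log2 fold change was 0.16 in place of -0.19. Grm6, with 60, 4 and 13 UMIs in OIR and 86, 2 and 7 in Ctrl, and Nyx, with 14, 0 and 5 UMIs in OIR and 21, 2 and 3 in Ctrl, were below the filter in this class and were not compared. Lrit3 had 1 UMI in OIR and 2 in Ctrl.

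**Figure D4:**
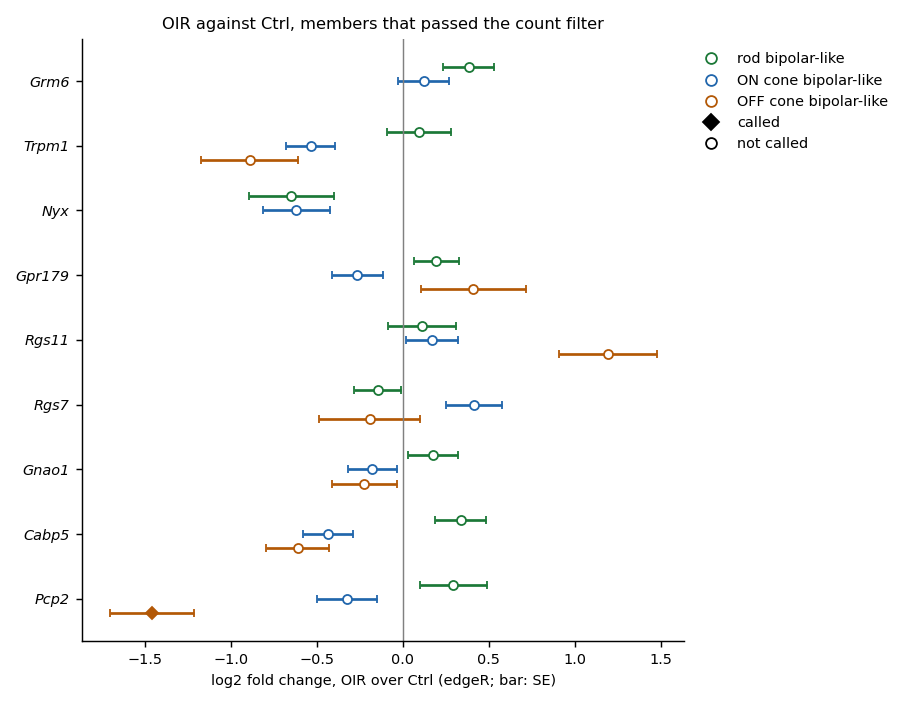
Log2 fold change of OIR over Ctrl with its standard error (edgeR, n = 3 per group) for the genes that passed the count filter in the rod, ON cone and OFF cone bipolar-like classes. Pcp2 in OFF cone bipolar-like cells (-1.46 ± 0.24) is the only value called in this fit without the replicate block, and Cabp5, Gnao1, Pcp2 and Trpm1 lie above 0 in the rod bipolar-like class (Trpm1 not without Ctrl replicate 1) and below 0 in both cone bipolar-like classes.

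Whether the OIR effect differed between classes was tested directly, as the interaction of class and group with the sample as a block. Between rod and ON cone bipolar-like cells the effect differed for 4 of the 10 genes, where 1.35% of all 10287 genes tested were called. The effect was more positive in rod bipolar-like cells by 0.76 ± 0.12 on the log2 scale for Cabp5, by 0.66 ± 0.11 for Trpm1, by 0.63 ± 0.11 for Pcp2 and by 0.48 ± 0.12 for Gpr179 (adjusted p = 0.00035, 0.00090, 0.00070 and 0.0345 by edgeR). The ratio of the rod bipolar-like to the ON cone bipolar-like level shows this within each sample. For Trpm1 it was 7.64, 8.78 and 7.43 in OIR and 4.23, 6.01 and 5.14 in Ctrl, and for Cabp5 it was 1.29, 1.89 and 1.67 in OIR and 0.860, 0.959 and 1.03 in Ctrl. Ratios of both genes were higher in every OIR sample than in every Ctrl sample. The same held for Pcp2 and Gpr179, and for Grm6 and Gnao1, whose differences were not called. How often such ratios separate over all genes was not counted.

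Pcp2 followed, with ratios of 6.90, 8.33 and 8.96 in OIR and 4.57, 5.48 and 5.67 in Ctrl. Rgs7 had the reverse order, with ratios of 3.30, 2.62 and 2.20 in OIR and 4.27, 4.26 and 3.56 in Ctrl, and its difference of -0.56 ± 0.16 was not called (adjusted p = 0.0872 by edgeR). Gpr179 had ratios of 2.67, 2.69 and 2.83 in OIR and 1.79, 1.79 and 2.56 in Ctrl, and its call was lost without replicate 1 of both groups (adjusted p = 0.0758) and without replicate 2 (adjusted p = 0.235). Without replicate 1 the edgeR test also called Grm6 (difference 0.37, adjusted p = 0.0331) and Gnao1 (0.43, adjusted p = 0.0085). All Ctrl samples in that fit expressed Xist and all OIR samples Y-linked genes, so that OIR and sex cannot be told apart in it. With the 6 ON subgroups weighted alike the differences were 0.63 for Cabp5, 0.73 for Trpm1, 0.57 for Pcp2 and 0.44 for Gpr179, and 0 of the 10 was called by limma on these values (adjusted p from 0.282 to 0.506 for the 4 genes).

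**Figure D5:**
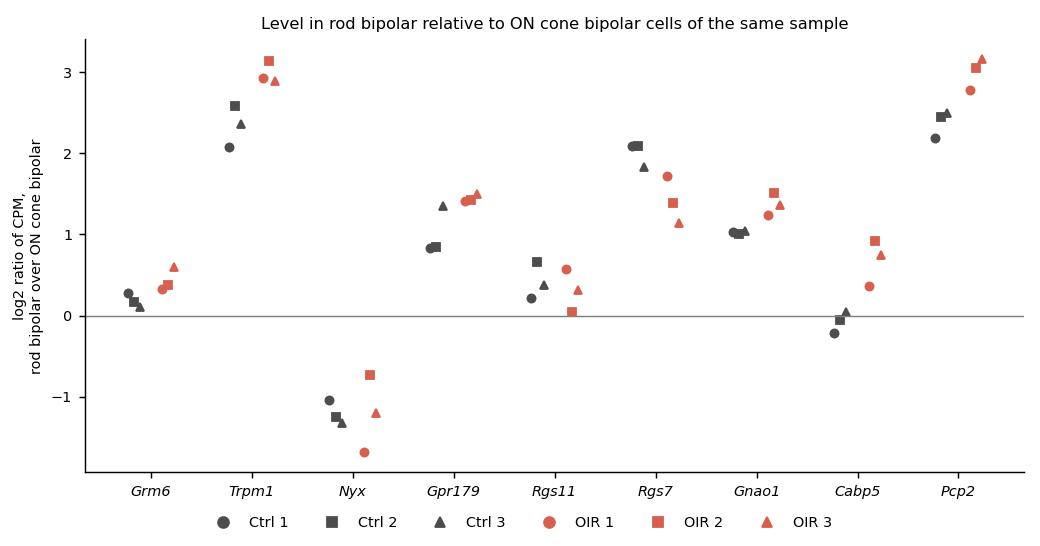
Log2 of the ratio of the rod bipolar-like to the ON cone bipolar-like level (CPM) for 9 of the genes in each OIR and Ctrl sample, 1 point per sample. For Trpm1 (ratios of 7.43 to 8.78 against 4.23 to 6.01), Cabp5 (1.29 to 1.89 against 0.860 to 1.03) and Pcp2 (6.90 to 8.96 against 4.57 to 5.67) all OIR samples lie above all Ctrl samples. The same holds for Gpr179, Grm6 and Gnao1, and the reverse for Rgs7.

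Between rod and OFF cone bipolar-like cells the effect differed for 4 genes, where 0.64% of 10306 genes were called. It was more positive in rod bipolar-like cells for Pcp2 (by 1.79 ± 0.18), Trpm1 (1.08 ± 0.25) and Cabp5 (0.95 ± 0.14) and more negative for Rgs11 (-0.88 ± 0.22, adjusted p = 0.0406 by edgeR). Without replicate 1, Trpm1 (difference 0.85, adjusted p = 0.549) and Rgs11 (-1.35, adjusted p = 0.182) were not called, nor was Rgs11 without replicate 2 (-0.75, adjusted p = 0.188). Between ON and OFF cone bipolar-like cells it differed for 2 genes, where 0.361% of 9700 genes were called, with Pcp2 more positive (1.16 ± 0.16) and Rgs11 more negative (-1.01 ± 0.21) in the ON class. Without replicate 1 the difference of Rgs11 was again -1.01 but was not called (adjusted p = 0.525). With the cone subgroups weighted alike, which left out the Neto1-led and Pcdh17-led OFF cells, limma called 0 of the 10 in both pairs. The differences between rod and OFF cone bipolar-like cells were then 2.68 for Trpm1, 0.98 for Pcp2, 0.62 for Cabp5 and -0.51 for Rgs11 (adjusted p from 0.816 to 0.855), and those between ON and OFF cone bipolar-like cells 0.41 for Pcp2 and -0.49 for Rgs11 (adjusted p = 0.855 and 0.874).

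The share of cells with at least 1 UMI of a gene was compared after thinning cells to 1000 UMIs, and cells with fewer were left out. In the ON cone bipolar-like class this left out 21, 18 and 7 cells in OIR replicates 1 to 3 and 13, 2 and 3 in Ctrl. Grm6 was detected in 69.2%, 64.3% and 72.7% of rod bipolar-like cells in OIR and 56.9%, 54.4% and 59.9% in Ctrl, against 0.243% to 1.51% of rod-like cells. Median UMIs before thinning were 6468 to 10405 in rod bipolar-like and 1403 to 3113 in rod-like cells. Trpm1 was detected in 37.4%, 40.2% and 39.4% of ON cone bipolar-like cells in OIR and 43.1%, 51.8% and 45.2% in Ctrl, with 0.243% to 2.05% in rod-like cells. Pcp2 was detected in 24.3%, 17.5% and 9.80% of OFF cone bipolar-like cells in OIR and 32.1%, 32.5% and 29.5% in Ctrl, with 1.80% to 13.5% in rod-like cells. The groups were separate in all 3, as they already were in CPM, which rests on the same UMIs. Each reached p = 0.1 in the two-sided exact permutation test, the smallest that 3 samples against 3 allow. Adjusted over the 30 shares compared, this permutation test gave p = 0.375 for each. Groups were also separate for Gpr179, Gnao1 and Pcp2 in rod bipolar-like cells and for Nyx and Cabp5 in ON cone bipolar-like cells. How often such shares separate over all genes was not counted. In CPM the groups were separate for 19.2%, 17.2% and 14.8% of all genes in the rod, ON cone and OFF cone bipolar-like classes. The Pcp2 share in rod bipolar-like cells was lower in OIR (mean 99.52% against 99.96%), although its CPM was higher there. Shares overlapped for Trpm1 in rod bipolar-like cells and for Grm6 (mean 53.6% against 54.6%) and Pcp2 in ON cone bipolar-like cells. On all UMIs of each cell Grm6 was near saturation in rod bipolar-like cells, at 97.5% in OIR and 98.0% in Ctrl.

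The cascade partners of the members were taken from a list of 11 genes, among them the G protein subunits Gnb3, Gng13 and Gnb5. For this and the further lists, the counts at an unadjusted p under 0.05 by edgeR stand beside those of all genes. These were 1361 of 9288 in rod bipolar-like, 1112 of 9505 in ON cone and 514 of 5441 in OFF cone bipolar-like cells. In rod bipolar-like cells 0 of 11 was called (median log2 fold change -0.12, against -0.01 over all genes), with 2 at an unadjusted p under 0.05 by edgeR. The 2 of lowest p were Gng13 (4530 against 6728 CPM, log2 fold change -0.60 ± 0.23, adjusted p = 0.226) and Gpr158, which was below the filter. In ON cone bipolar-like cells 1 of 11 was called, Gng13, which fell from 3279 ± 338 CPM in Ctrl to 1673 ± 204 CPM in OIR (log2 fold change -1.01 ± 0.18, adjusted p = 0.0166 by edgeR). In OFF cone bipolar-like cells 0 of 11 was called, with Gnb5 (-0.64 ± 0.20) and Gnb3 (0.51 ± 0.24) at the lowest p and 2 at an unadjusted p under 0.05.

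The list of 15 photoreceptor synapse genes, which includes the presynaptic calcium channel and its partners, gave 0 calls in each bipolar class. Its members of lowest p were Bsn (-0.70 ± 0.21) in the rod bipolar-like, Cabp4 (-0.58 ± 0.27) in the ON cone and Cabp4, below the filter, in the OFF cone bipolar-like class. Unadjusted p was under 0.05 for 1, 0 and 1 of the 15 genes in these classes by edgeR. Of 10 glutamate receptor genes of OFF bipolar cells, 0 was called in rod bipolar-like and ON cone bipolar-like cells, with 3 at an unadjusted p under 0.05 in each. Gria4 (0.93 ± 0.34) and Grik5 (-0.39 ± 0.16) led in the rod bipolar-like class and Grik1 (0.93 ± 0.27) and Gria2 (-0.58 ± 0.23) in the ON cone class. Grik1 also set the ON and OFF class names, so its level in the ON cone class was limited by the naming. In OFF cone bipolar-like cells 1 of the 10 rose, Neto1, an auxiliary subunit of kainate receptors, with 34.1 CPM in Ctrl and 105 CPM in OIR (1.70 ± 0.36 on the log2 scale, adjusted p = 0.0243 by edgeR). Neto1 is also the leading marker of a subgroup whose share was larger in OIR replicates 1 and 3. The Pcdh17-led share was larger in every OIR sample than in every Ctrl sample, so that the make-up of the OFF class was not the same in both groups. The part of the make-up in Neto1 and in the other list genes of this class was not tested.

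Of 15 transcription factors of bipolar cells, 0 was called in the rod and ON cone bipolar-like classes, with 3 and 2 at an unadjusted p under 0.05 by edgeR. Isl1 had a log2 fold change of 0.52 ± 0.15 in rod bipolar-like cells, and in ON cone bipolar-like cells Bhlhe23 (0.49 ± 0.15) and Bhlhe22 (-0.79 ± 0.27) had the lowest p. In OFF cone bipolar-like cells 2 of 15 rose, Prdm8, which had 18.5 CPM in Ctrl and 76.8 CPM in OIR (2.18 ± 0.33 on the log2 scale, adjusted p = 0.0013 by edgeR) and Bhlhe23, which had 36.1 CPM in Ctrl and 86.1 CPM in OIR (1.34 ± 0.27, adjusted p = 0.0160). Of 12 genes for the GABA and glycine receptors of bipolar cells, 0 was called in the ON cone and OFF cone bipolar-like classes, with 4 and 2 at an unadjusted p under 0.05 by edgeR, and Gabrr2, a subunit of the GABA-C receptor, had the lowest p in both (-0.56 ± 0.16 and -0.84 ± 0.22).

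Outside the bipolar classes, 1 member was called in any of the 6 other types that had 10 or more cells per sample. Of all genes, 2.71% were called in rod-like, 2.71% in Mueller-like, 1.29% in cone-like, 0.321% in microglia-like, 0.168% in RPE-like and 0% in amacrine-like cells. The member was Pcp2 in RPE-like cells (lower in OIR), a gene below the filter there whose difference rested on 1298 CPM in Ctrl replicate 2. Gnao1 in Mueller-like cells had 120, 114 and 84.2 CPM in OIR and 174, 133 and 162 CPM in Ctrl (log2 fold change -0.61 ± 0.17, adjusted p = 0.1003 by edgeR). Cabp5 in cone-like cells had 82.9, 103 and 82.2 CPM in OIR and 62.0, 66.7 and 48.0 CPM in Ctrl (log2 fold change 0.50 ± 0.15, adjusted p = 0.137). Both pairs of groups were separate, as were those of 20.9% of all genes in Mueller-like and 16.9% in cone-like cells, and neither passed the test. Over all cells of a sample, the CPM of the 10 genes and the bipolar share gave two-sided exact permutation p from 0.3 to 1, and in such whole-sample sums fewer bipolar cells and less RNA per bipolar cell cannot be told apart.

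RNA of other cells was present in the bipolar sums. All 7 rod markers were detected in every rod bipolar-like sum, at a summed level of 2007 to 4283 CPM in Ctrl and 1650 to 3079 CPM in OIR, and at 1970 to 4207 and 1608 to 2889 CPM in the ON cone and 3422 to 4890 and 2377 to 4108 CPM in the OFF cone bipolar-like sums. Cone markers summed to 875 to 1432 CPM in Ctrl and 716 to 1197 CPM in OIR of the OFF cone bipolar-like class, and Mueller markers to 133 to 217 CPM in Ctrl and 249 to 286 CPM in OIR of the rod bipolar-like class. Lens markers summed to 46.1, 147 and 348 CPM in the rod, ON cone and OFF cone bipolar-like sums of OIR replicate 2. In all other samples they summed to at most 6.12 CPM in these classes. With rod genes left out of the counts Pcp2 in OFF cone bipolar-like cells was still called (log2 fold change -1.47), and the part of the other markers in the member values was not tested.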

How the data were processed

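Retinas were dissociated and single-cell RNA was captured with 10x Genomics 3' chemistry (v3). The deposited values were raw UMI counts per gene and barcode, which the authors had made with Cell Ranger from reads mapped to mm10 according to the submitters' processing notes. The matrix headers name version 3.1.0. The study's methods name a human reference, but the files list mouse Ensembl genes. No barcode in the files had fewer than 500 UMIs, and free RNA in empty droplets was therefore not measurable. At most 34 barcodes were shared between any pair of samples.

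The 10 genes and the gene lists were chosen with earlier results of these data known. Cells with 500 to 5000 detected genes and at most 20% mitochondrial counts were kept, as in the study, and integrated by canonical correlation analysis in Seurat 5.3.0 (2000 variable genes, 15 principal components, 20 neighbors, resolution 0.5). The 10 genes and close partners, 21 in all, were left out of clustering. Bipolar cells were clustered again at resolution 1, and 386 of 5511 stayed unnamed. Clusters with Prkca at 2 or more times its mean over the bipolar clusters were named rod bipolar. For the others, ON and OFF classes were told apart by a 2-unit log2 margin between Isl1 and Grik1. Doublets were not removed in the main settings. All 10 members were named in each bipolar class and, of each further list, the called genes or else the 2 of lowest p, except for some results that are not reported here.

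Raw counts were summed per sample and class, and 3 OIR and 3 Ctrl sums were put through edgeR's quasi-likelihood test (version 4.0.16 in R 4.3.3, TMM scaling, low counts filtered with filterByExpr) without covariates. Members and list genes that the filter removed stayed in the fit. Interactions used the sample as a block. Single values were compared by exact permutation tests in SciPy 1.17.1. On simulated counts the test recovered 74.0%, 65.0% and 66.5% of 2-fold changes and 8.00%, 9.00% and 8.00% of 1.5-fold changes in rod, ON cone and OFF cone bipolar-like sums (9115, 9288 and 5238 genes for the 2-fold runs), and of its calls 9.76%, 6.47% and 4.32% were false in the 2-fold and 5.88%, 10.0% and 20% in the 1.5-fold runs. The interaction tests recovered 54.5%, 30.5% and 48.0% of 2-fold differences between rod and ON cone, rod and OFF cone, and ON and OFF cone bipolar-like cells (9.17%, 7.58% and 11.9% of calls false), but 11.5%, 5.50% and 6.50% of 1.5-fold differences (28.1%, 42.1% and 18.8% of calls false).

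OIR and Ctrl samples share replicate numbers. Deviations of same-numbered samples from their group means correlated at 0.67, 0.30 and 0.51 over whole samples, at 0.32, 0.12 and 0.16 in rod bipolar-like and 0.32, 0.15 and 0.15 in ON cone bipolar-like sums, all above 0.1, and at 0.22, 0.02 and 0.08 in OFF cone bipolar-like sums. The highest correlation of differently numbered samples was that of OIR replicate 3 with Ctrl replicate 2. It was 0.40 over whole samples, above that of the same-numbered replicates 2, and 0.07, 0.04 and 0.09 in rod, ON cone and OFF cone bipolar-like sums. In the OFF cone class it was above that of same-numbered replicates 2 and 3. The pairing rests on the correlations of same-numbered samples and on the shared numbers alone. Alternatives were DESeq2 1.42.0, no filter, each sample left out, the replicate block, a term for sex, replicates 2 and 3 alone, Leiden clustering without integration (scanpy 1.11.5), a 10% mitochondrial limit, removal of the highest Scrublet scores, leaving out rod genes and, added after seeing the data, equal weights for subgroups with at least 5 cells in every sample (limma 3.58.1 on log2(CPM + 1)). In every fit without Ctrl replicate 1, and in replicates 2 and 3 alone, all OIR samples expressed Y-linked genes and all Ctrl samples Xist. OIR and sex cannot be told apart in those fits. With the term for sex, the OIR effect was estimated against Ctrl replicate 1 alone, since the other Ctrl samples expressed Xist.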

Additional observations from a re-analysis of the deposited data

Results flagged for a closer look

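The effect of OIR differed between bipolar classes, by the interaction test of edgeR, in 10 comparisons of a member between a pair of classes. Of all genes, 1.35% were called between rod and ON cone, 0.64% between rod and OFF cone and 0.361% between ON and OFF cone bipolar-like cells. On the log2 scale the effect was more positive in rod than in ON cone bipolar-like cells by 0.76 for Cabp5, 0.66 for Trpm1, 0.63 for Pcp2 and 0.48 for Gpr179. It was more positive in rod than in OFF cone bipolar-like cells by 1.79 for Pcp2, 1.08 for Trpm1 and 0.95 for Cabp5, and the difference for Rgs11 was -0.88. Between ON and OFF cone bipolar-like cells it was 1.16 for Pcp2 and -1.01 for Rgs11. Without replicate 1 of both groups, Gpr179, Trpm1 against the OFF cone class and both Rgs11 differences were not called. With equal subgroup weights limma called 0 of these differences. The groups held 3 samples each, so that outlying samples were not tested for.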

How the results depend on the processing

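Over 781 recomputed log2 fold changes of 50 pairs of a named gene and a bipolar class, 773 kept their direction. The 8 that turned were Rgs11 in rod bipolar-like cells without OIR replicate 1 (-0.19) and in replicates 2 and 3 alone (-0.24), Trpm1 there without Ctrl replicate 1 (-0.037, to 0.21 without others), Elfn2 there with a term for sex (-0.014), and, in OFF cone bipolar-like cells, Rgs7 without Ctrl replicate 1 (0.16), in replicates 2 and 3 alone (0.00088) and with equal subgroup weights (0.46), and Gpr179 with equal weights (-0.56). Leaving out 1 sample moved Rgs11 in rod bipolar-like cells between -0.19 and 0.27 and Rgs7 in OFF cone bipolar-like cells between -0.40 and 0.16. The cause was not tested.

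In rod bipolar-like cells, against 121 genes called higher and 103 lower, the replicate block called 363 and 344 (of the members, 1 and 1), no filter called 324 and 272, and replicates 2 and 3 alone 314 and 359. Leaving out 1 sample gave 53 to 172 higher and 29 to 180 lower. In ON cone bipolar-like cells, against 49 and 43, the block called 145 and 132 (1 member lower), no filter 176 and 165 (1 member lower), a term for sex 127 and 112, replicates 2 and 3 alone 100 and 134 (1 member lower), equal weights 24 lower, and DESeq2 1 member lower. Leaving out 1 sample gave 32 to 82 higher and 7 to 81 lower. In OFF cone bipolar-like cells, against 28 and 13, the block called 74 and 49 (members: 1 higher, 3 lower), no filter 86 and 55 (1 and 2), a term for sex 55 and 58 (2 members lower), replicates 2 and 3 alone 47 and 34, equal weights 7 and 0 (0 members), DESeq2 8 lower, and the 10% mitochondrial limit 1 member higher. Leaving out 1 sample gave 13 to 44 higher, 6 to 27 lower and 0 to 1 members higher, and the median of the members went from -0.32 to 0.06.

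In the 3 bipolar classes the block changed the calls of no other member than Grm6 and Nyx in rod, Trpm1 in ON cone and Rgs11, Trpm1 and Cabp5 in OFF cone bipolar-like cells. A term for sex also called Trpm1 lower in OFF cone bipolar-like cells. With that term the OIR effect was estimated against Ctrl replicate 1 alone, the only Ctrl sample that did not express Xist. The calls and counts given above for that fit therefore rest on a single Ctrl sample. For the class differences, leaving out a replicate gave 3 to 5, 2 to 4 and 1 to 2 members called, and equal weights gave 0, 0 and 0. The equal weights also changed the test from edgeR to limma, and the part of each in the lost calls was not tested. The share of rod bipolar-like cells with Grm6 turned from 11.7 points higher to -0.47 points on all UMIs.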
